A study of Mus musculus with 8 samples.

Results

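Genes of the lysosomal proton pump, of its proteases and of a few proteins that build or govern the organelle were compared between livers of Huwe1_LKO and WT mice. Members were all genes whose symbol starts with Atp6v (the V-ATPase), those named Cts plus a single letter (the cathepsins), and Lamp1, Lamp2, Mcoln1, Tfeb and Tfe3, which gave 38 of the 16640 genes in the authors' deposited table. These are 19 V-ATPase genes, 14 cathepsin genes and 5 genes of lysosomal membrane proteins and regulators. Bulk RNA sequencing was done on whole liver of 1-year-old mice fed chow at will, with 4 Huwe1_LKO livers (liver-specific knockout of Huwe1, a HECT-type ubiquitin ligase) and 4 WT livers. No source used here names the transgene that drives the deletion, the deleted exons or the sex of the mice, and liver cells in which the deletion does not act keep the gene. Huwe1 itself had a deposited value of 1784 in Huwe1_LKO and 2666 in WT, which left 66.9% of the WT level (adjusted p = 0.000425 in the authors' deposited table).

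Lysosomes degrade material delivered by endocytosis and autophagy, and their enzymes work at acid pH. The V-ATPase makes that acid: its cytosolic V1 sector hydrolyses ATP and turns a rotor, which drives protons through the membrane-embedded V0 sector. Cathepsins are the main lysosomal proteases and fall into cysteine, aspartic and serine types, several of which need acid to mature from their proforms. TFEB and TFE3 are related basic helix-loop-helix factors that enter the nucleus when nutrients are short and bind E-box motifs in the promoters of lysosomal genes, in liver as in other tissues.

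The E-boxes in the members' promoters are shown first, since they are what TFEB and TFE3 are known to read. RefSeq promoter windows (GRCm38.p6, 250 bases before to 50 after a start site) were matched for 28 of the 38 members, namely 13 V-ATPase genes, 10 cathepsin genes and all 5 others. The core E-box CACGTG, which reads the same on both strands, was found in 10 of these 28 (35.7%), against 8.09% of all 27025 RefSeq genes with a window and 10.5% of those in the expression table. The longer palindrome TCACGTGA, which contains that core, was found in 6 of 28 (21.4%), against 1.12% of all RefSeq genes and 1.80% of those in the table. The 30-base stretches below, each written 5′ to 3′ on the strand of the gene, show the palindrome TCACGTGA in capitals in the 6 members that have it.
Atp6v1a: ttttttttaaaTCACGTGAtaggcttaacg
Atp6v0d1: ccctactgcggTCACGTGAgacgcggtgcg
Atp6v0e: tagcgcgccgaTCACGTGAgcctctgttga
Ctsd: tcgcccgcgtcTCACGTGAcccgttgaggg
Ctsa: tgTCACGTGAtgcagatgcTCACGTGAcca
Mcoln1: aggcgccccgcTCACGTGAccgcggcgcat

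These stretches lie, in GRCm38, at chr16:44139373-44139402 (minus strand) for Atp6v1a, chr8:105566050-105566079 (minus) for Atp6v0d1 and chr17:26676387-26676416 (plus) for Atp6v0e. Those of the proteases and the channel lie at chr7:142387908-142387937 (minus) for Ctsd, chr2:164833758-164833787 (plus) for Ctsa and chr8:3500462-3500491 (plus) for Mcoln1. Ctsa carries the palindrome in a pair, one copy on either side of the start site used for its window. For Ctsa and Atp6v1a that start site lies inside the gene's annotated span (chr2:164832872-164841032 and chr16:44085402-44139702), not at its outer end. Lamp1 and Atp6v0b have no such palindrome but repeat the core, which is in capitals in the stretches below. Lamp1 has 4 cores within the last 61 bases before its start site, and they are shown as an upstream and a downstream pair.
Lamp1, upstream pair (chr8:13159096-13159125, plus): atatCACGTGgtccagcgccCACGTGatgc
Lamp1, downstream pair (chr8:13159128-13159157, plus): actggCACGTGaccacatCACGTGcggaac
Atp6v0b (chr4:117887339-117887368, minus): ggtCACGTGgggtcggcgcatCACGTGcgc

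**Figure D1:**
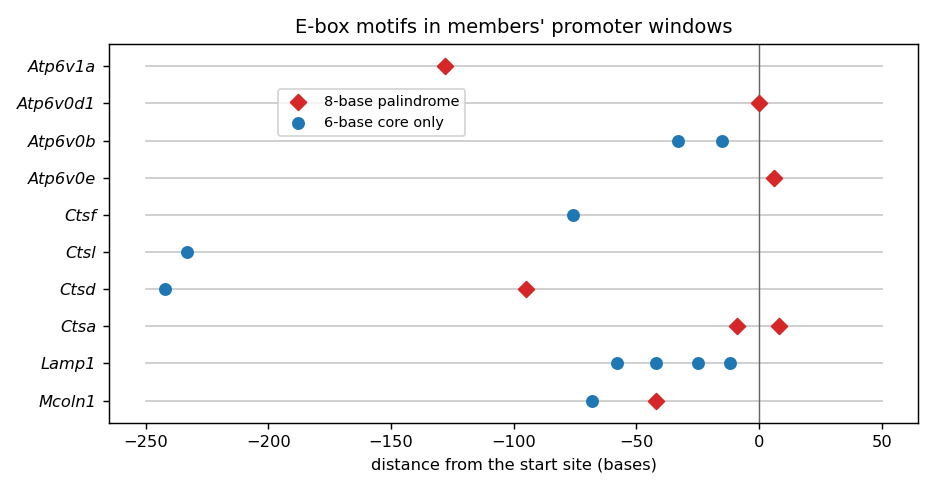
Positions of E-boxes in the promoter windows of the 10 members that have one; the x axis is the distance in bases from the start site, diamonds mark the 8-base palindrome and circles the 6-base core alone. Most of them lie close to the start site, and Lamp1 has 4 in a row.

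Few of the members changed. In the authors' deposited table, at an adjusted p under 0.05 over all genes, 3 of 38 were lower in Huwe1_LKO (Ctsd, Atp6v1h and Atp6v0d2) and 0 were higher, while 9.97% of all 16640 genes were called, 4.41% as higher and 5.56% as lower. The members' share of calls thus lay near or under that of the whole table. By DESeq2's deposited unadjusted p, 5 members had a value under 0.05, against 20.5% of all genes, and Tfeb was the only one of these with a fold change above 0. The deposited log2 fold changes of Huwe1_LKO over WT, called log2 ratios from here on, had a median of -0.08 over the 38 members, with 17 above 0 and 21 below, against a median of 0.02 over all genes. Values per liver were not analysed here: each level is the authors' single value for a group, in depth-normalized reads, and each error is the standard error (SE) of the log2 ratio, computed from the deposited p. Both group values of a scarce gene carry a fold change that was shrunken toward 0 before deposit. In whole liver, fewer cells of a type and less RNA per cell cannot be told apart.

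Most members were abundant, and their fold changes were measured closely. Of the 38, 34 had a mean of both group values of 10 or more, and their implied SE had a median of 0.13. Of the 31 such members that were not called, 24 had a 95% interval of the fold change that lay within 1.5-fold in either direction, and 28 had one within 2-fold. The exceptions at 2-fold were Ctse, Ctsc and Ctsw, whose values are given with the other cathepsins below. Members at a mean of 1000 or more numbered 12, of which 1 was called, where 21.5% of genes at that level were. Another 18 lay between 100 and 1000, of which 1 was called, where 12.8% of genes were, and 4 between 10 and 100, of which 1 was called, where 8.33% of genes were.

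**Figure D2:**
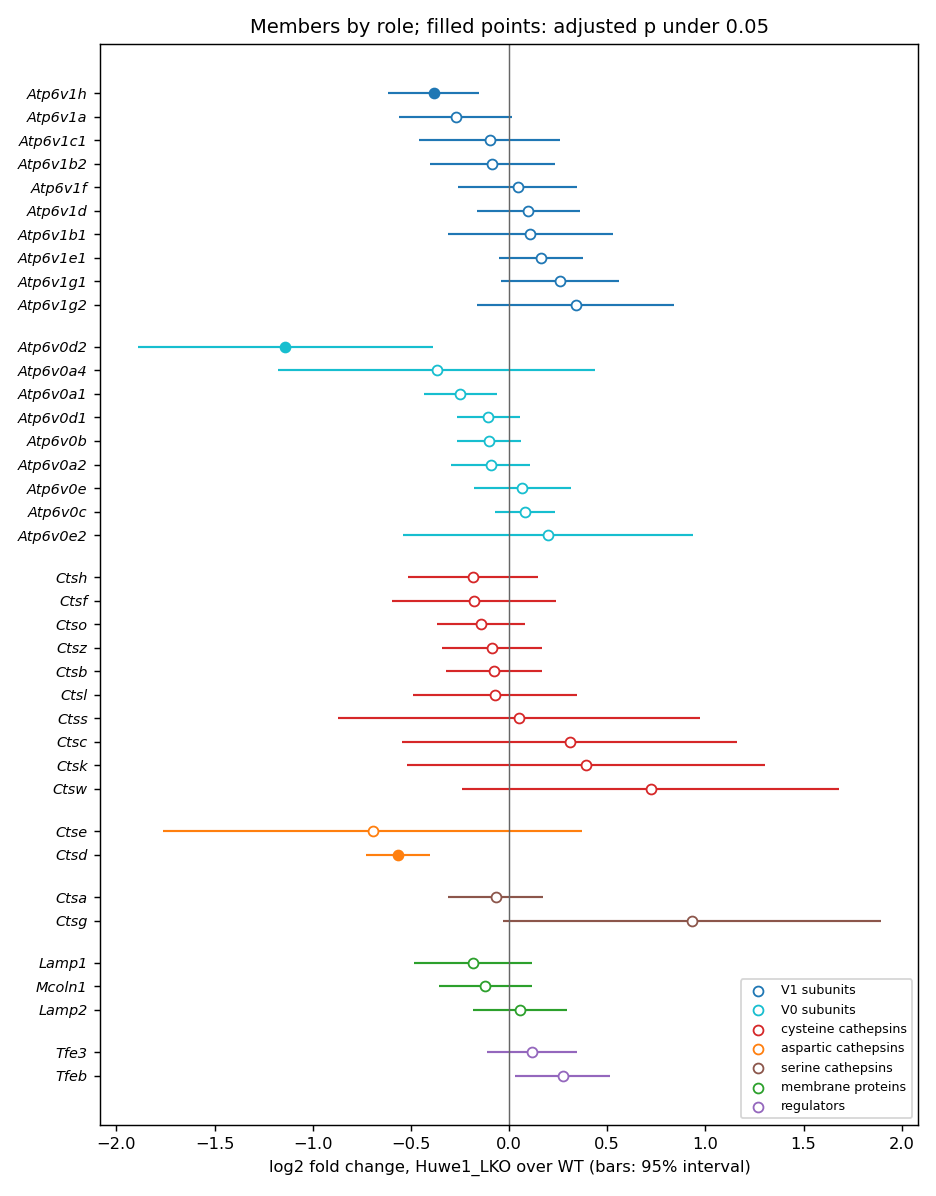
Log2 ratio of Huwe1_LKO over WT for each of the 38 members, grouped by role; points are the deposited fold changes, bars the 95% interval from the implied SE, and filled points have an adjusted p under 0.05. Ctsd, Atp6v1h and Atp6v0d2 are the filled points, all left of 0, and most other members straddle 0 with short bars.

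**Figure D3:**
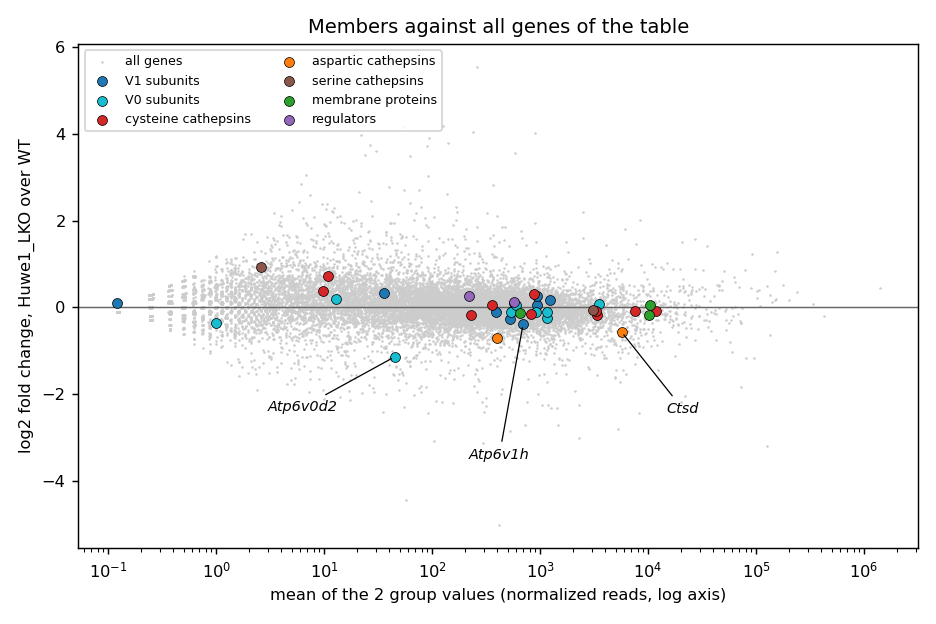
Log2 ratio of Huwe1_LKO over WT (y axis) against the mean of both group values (x axis, log scale) for all genes in grey and for the members by role in colour. Most members sit among the abundant genes and close to 0, within the cloud of all genes. Atp6v0a4, Atp6v1b1, Ctsg and Ctsk are scarce, and Atp6v0d2 (-1.14) and Ctsg (0.93) lie farthest from 0.

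Of the 10 V1 sector genes, 1 fell and none was called higher, per the authors' deposited table, where 9.97% of all genes were called. Atp6v1h (Entrez ID 108664; chromosome 1, 5082978 to 5163213 in GRCm38) encodes subunit H, which couples the sectors and keeps free V1 from hydrolysing ATP. Its deposited value was 603 in Huwe1_LKO and 787 in WT, 76.7% of the WT level, with a log2 ratio of -0.38 (SE 0.12) and an adjusted p of 0.0172. Subunit A, the catalytic subunit (Atp6v1a), had deposited values of 477 in Huwe1_LKO and 576 in WT and did not pass (log2 ratio -0.27, SE 0.15, adjusted p = 0.284). Its nucleotide-binding partner subunit B (Atp6v1b2) stood at 541 in Huwe1_LKO and 574 in WT in the deposited table (log2 ratio -0.09). Subunits A and B together form the catalytic ring of V1, and neither of their genes passed.

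None of the stalk and rotor genes of V1 described here passed, and their log2 ratios lay on both sides of 0. Subunit F of the central rotor (Atp6v1f) was the highest V1 gene per kb of gene length, at 1490.1 in Huwe1_LKO and 1444 in WT, and had a deposited log2 ratio of 0.05 (SE 0.15, adjusted p = 0.924). Its rotor partner Atp6v1d had a deposited log2 ratio of 0.10 (adjusted p = 0.817). In the peripheral stalks, Atp6v1e1 stood at 1292 in Huwe1_LKO and 1155 in WT, and Atp6v1g1 at 1008 in Huwe1_LKO and 843 in WT, in the authors' deposited table. Neither passed, with deposited log2 ratios of 0.16 (SE 0.11) and 0.26 (SE 0.15). Atp6v1c1, which ties the stalks to the membrane sector, lay below 0, with deposited values of 376 in Huwe1_LKO and 403 in WT (log2 ratio -0.10, adjusted p = 0.847). In sum over the 10 genes, V1 reads per kb came to 4684 in Huwe1_LKO and 4482 in WT (105% of WT, and 101% without scaling by length), a description for which no error can be given.

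In the V0 sector 1 of 9 genes was called, as lower, by the authors' deposited table, where 9.97% of all genes were called. The gene that fell was Atp6v0d2 (Entrez ID 242341; chromosome 4, 19876838 to 19922566), an isoform of the rotor-linking d subunit best known from osteoclasts, macrophages and kidney. It was also the member with the lowest deposited log2 ratio, -1.14 (SE 0.38, adjusted p = 0.0337), with values of 28.0 in Huwe1_LKO and 61.7 in WT. The common isoform Atp6v0d1 had deposited values of 1108 in Huwe1_LKO and 1191 in WT and did not pass (log2 ratio -0.10, SE 0.08, adjusted p = 0.565). Per kb, Atp6v0d2 made up 1.60% of the d-subunit reads in Huwe1_LKO and 3.22% in WT.

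None of the remaining V0 genes passed. The proteolipid gene Atp6v0c, whose product forms most of the proton-carrying ring, was the highest V-ATPase gene per kb, at 3136 in Huwe1_LKO and 2963 in WT. Its deposited log2 ratio was 0.08 with an SE of 0.08 (adjusted p = 0.664), and its 95% interval ran from -0.07 to 0.23. Pseudogene copies of Atp6v0c exist, so the assignment of its reads is uncertain. The other proteolipid, Atp6v0b, stood at 875 in Huwe1_LKO and 939 in WT, and the small subunit Atp6v0e at 606 in Huwe1_LKO and 578 in WT, in the authors' deposited table. Neither of these passed.

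The a subunit, which holds the proton half-channels and targets the pump to its membrane, has several genes. Atp6v0a1 stood at 1047 in Huwe1_LKO and 1244 in WT in the authors' deposited table, a log2 ratio of -0.25 (SE 0.10). Its deposited adjusted p was 0.0761, so it did not pass, although the unadjusted p was 0.00895. Atp6v0a2, the isoform of Golgi and endosomes, had deposited values of 519 in Huwe1_LKO and 554 in WT (adjusted p = 0.732). The a3 isoform is encoded by Tcirg1, which the symbol rule leaves out. Tcirg1 had deposited values of 1086 in Huwe1_LKO and 784 in WT, a log2 ratio of 0.47 (SE 0.20) and an adjusted p of 0.136, and did not pass. Per kb, Tcirg1 made up 52.7% of a-subunit reads in Huwe1_LKO and 41.0% in WT, and Atp6v0a1 34.5% in Huwe1_LKO and 44.2% in WT. These shares are descriptions, and the difference between the fold changes of both genes was not tested.

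Isoforms known from other tissues were scarce. Atp6v0a4 and Atp6v1b1, the a and B isoforms of kidney acid-secreting cells, had normalized totals of 7.98 and 0.955 reads over all 8 livers, too few for a comparison. The neuronal isoform Atp6v1g2 made up 2.75% of G-subunit reads per kb in Huwe1_LKO and 2.61% in WT. Atp6v0e2 made up 0.978% of e-subunit reads per kb in Huwe1_LKO and 0.893% in WT. Neither passed the test in the authors' deposited table, with adjusted p of 0.536 and 0.847. The d-subunit and these other pairs were thus dominated by their common gene in both genotypes.

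**Figure D4:**
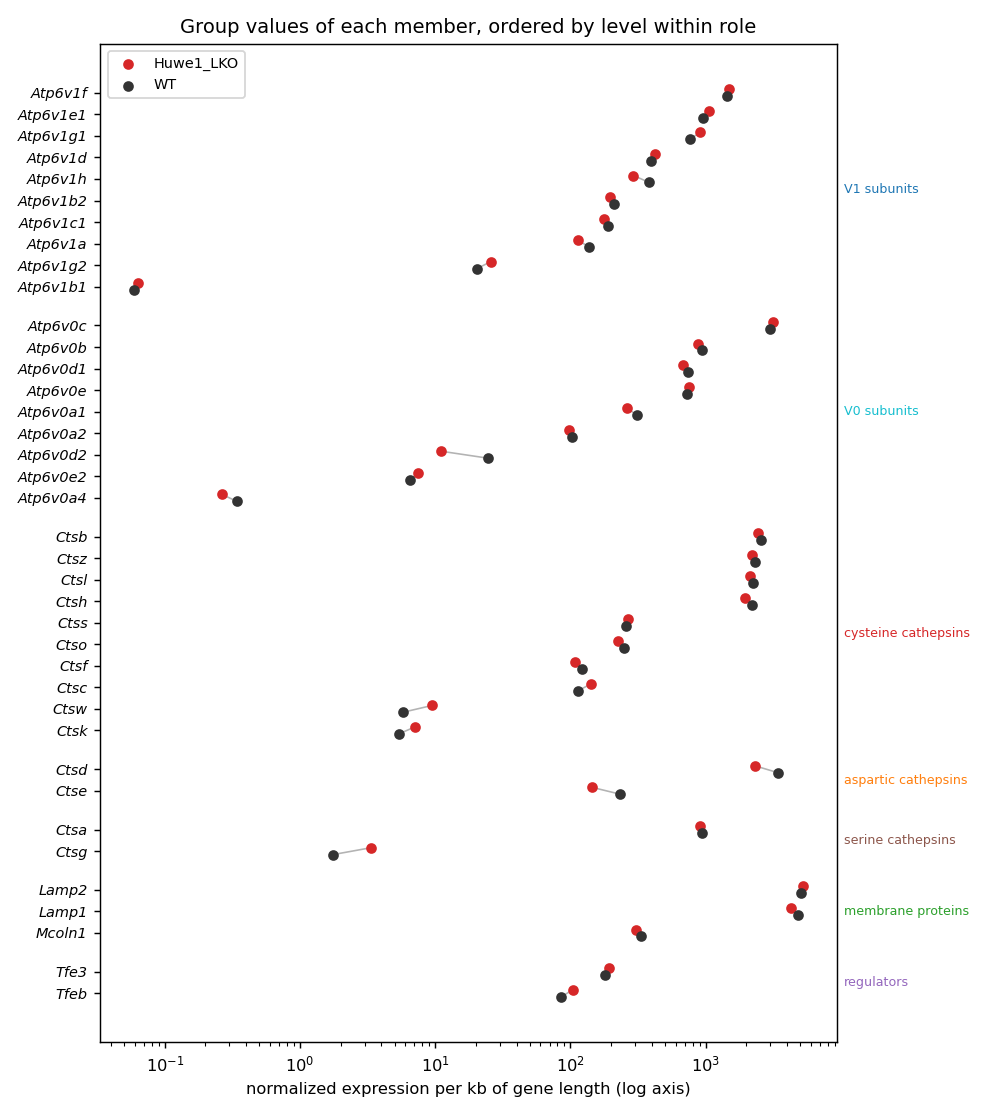
Deposited group values of each member per kb of gene length (x axis, log scale), red for Huwe1_LKO and black for WT, ordered by level within each role. The gaps are widest in Atp6v0d2, the aspartic cathepsins Ctsd and Ctse, and the scarce Ctsg and Ctsw; Atp6v1h, the other member that fell, stands at 76.7% of its WT level.

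The aspartic cathepsins had the lowest fold changes among the proteases. Cathepsin D, which starts the breakdown of long-lived proteins and activates other lysosomal enzymes, is encoded by Ctsd (Entrez ID 13033; chromosome 7, 142375910 to 142387827). Its deposited value was 4574 in Huwe1_LKO and 6770 in WT, 67.6% of the WT level. The log2 ratio was -0.57 with an SE of 0.08, and the adjusted p of 1.11e-09 in the authors' deposited table was the smallest of any member. The 95% interval ran from -0.73 to -0.40. The gene overlaps no other RefSeq gene. Per kb it stood at 2311 in Huwe1_LKO and 3421 in WT, which made it 18.0% of all cathepsin reads per kb in Huwe1_LKO and 23.3% in WT. In WT Ctsd was the highest cathepsin per kb, and in Huwe1_LKO the cysteine cathepsin Ctsb was higher per kb. Ctsb overlaps Fdft1 in the annotation, a gene with deposited values of 3071 in Huwe1_LKO and 3812 in WT. A share of Fdft1 reads in the Ctsb value cannot be told apart.

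The other aspartic cathepsin, Ctse, known from stomach and immune cells, stood at 306 in Huwe1_LKO and 495 in WT in the authors' deposited table. Its deposited log2 ratio of -0.70 was lower than that of Ctsd, but its SE was 0.54 and it did not pass (adjusted p = 0.559). That SE exceeded those of 99.6% of genes with a mean value between 100 and 1000, and lay near the highest of any gene, 0.567. Its 95% interval, from -1.76 to 0.37, covers both a strong fall and no change.

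None of the 10 cysteine cathepsins passed in DESeq2's deposited result, and 0 had an unadjusted p under 0.05, against 9.97% and 20.5% of all genes. The 4 most abundant per kb were Ctsb, Ctsz, Ctsl and Ctsh, all broad housekeeping proteases. Ctsb, the highest of the cysteine group, had deposited values of 11579.7 in Huwe1_LKO and 12226 in WT, with a log2 ratio of -0.08 (SE 0.12, adjusted p = 0.847). Ctsl stood at 7434 in Huwe1_LKO and 7825 in WT, and Ctsz, a carboxypeptidase, at 3193 in Huwe1_LKO and 3394 in WT, in the authors' deposited table. Ctsh, an aminopeptidase, had deposited values of 3179.9 in Huwe1_LKO and 3609 in WT, a log2 ratio of -0.18 (SE 0.17). All of these lay on the low side of 0 in the deposited fold changes, with 95% intervals that included 0, and Ctsb and Ctsl moved to the other side of 0 when the fold changes were centred on abundant genes. Ctsf and Ctso, of lower level, had deposited log2 ratios of -0.18 and -0.14 and adjusted p of 0.763 and 0.564.

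Cysteine cathepsins known from immune and bone cells had wider errors, but Ctsw and Ctsk among them were scarce, with mean values of 10.9 and 9.84. Scarce genes had wider errors in general, with a median SE of 0.32 at mean values of 10 to 100. Ctss, of antigen-presenting cells, stood at 361 in Huwe1_LKO and 349 in WT in the authors' deposited table, and its log2 ratio was 0.05 with an SE of 0.47. Ctsc, which activates the serine proteases of granulocytes and lymphocytes, had deposited values of 969 in Huwe1_LKO and 783 in WT (log2 ratio 0.31, SE 0.44, adjusted p = 0.82). Ctsw, of cytotoxic lymphocytes, had deposited values of 13.6 in Huwe1_LKO and 8.24 in WT, a log2 ratio of 0.72 (SE 0.49) and an adjusted p of 0.455. Ctsk, the collagen-degrading enzyme of osteoclasts, had deposited values of 11.2 in Huwe1_LKO and 8.51 in WT (adjusted p = 0.761). All 4 had fold changes above 0 and none passed.

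The serine cathepsins differ in where they are made. Ctsa, the carboxypeptidase that protects beta-galactosidase and neuraminidase in the lysosome, stood at 2992 in Huwe1_LKO and 3136 in WT in the authors' deposited table (log2 ratio -0.07, SE 0.12, adjusted p = 0.847). Ctsa overlaps Pltp in the annotation, a gene with deposited values of 506 in Huwe1_LKO and 4104 in WT. No source used here says whether reads were counted by strand, so a share of Pltp reads in the Ctsa value cannot be told apart, and 14 of the 38 members overlap some other RefSeq gene. Ctsg, a granule protease of neutrophils, had 3.41 in Huwe1_LKO and 1.79 in WT in the deposited table, about 20.8 normalized reads over all 8 livers, and did not pass (adjusted p = 0.268). Beside it, 2 of 5 neutrophil markers (S100a9 and Retnlg) rose in the deposited table, where 4.41% of all genes were called higher. The values of all 5 neutrophil markers summed to 155 in Huwe1_LKO and 61.2 in WT. The part of these markers in the Ctsg value was not tested.

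The errors of the immune-associated cathepsins lay in the range of those of macrophage markers. The implied SE of 0.44 of Ctsc and of 0.47 of Ctss exceeded those of 98.5% and 98.8% of genes with a mean value between 100 and 1000, whose median SE was 0.15. The 16 macrophage markers had a median SE of 0.46, from 0.22 to 0.56. The 8 T, NK and B cell markers had one of 0.50, but none had a value above 38.1 in Huwe1_LKO or 36.9 in WT. They are thus not matched in level to Ctsc and Ctss. By contrast, Ctso, at a read number similar to that of Ctsc, had an SE of 0.11. The highest implied SE of any gene was 0.567, so the upper SEs given here lie near a ceiling. In DESeq2's deposited result 0 of the 16 macrophage markers passed and 1 had an unadjusted p under 0.05, against 9.97% and 20.5% of all genes. Their deposited values summed to 7138 in Huwe1_LKO and 5632 in WT. Much of that difference came from Spp1, the marker with the unadjusted p under 0.05, at 1410 in Huwe1_LKO and 722 in WT. Adgre1 was on the low side, at 62.2 in Huwe1_LKO and 70.9 in WT, and both genes were named after their values were seen. The marker with the lowest value, Gpnmb, still stood at 9.76 in Huwe1_LKO and 15.9 in WT. Atp6v0d2, which these cells can also express, was lower in Huwe1_LKO while 14 of the 16 markers had a fold change above 0. Of all 16640 genes, 8844 had a fold change above 0. Whether cell makeup has a part in these values was not tested. None of the 5 stellate, 5 endothelial and 4 cholangiocyte markers passed, nor did any of the 8 lymphocyte markers, in DESeq2's deposited result, and 0 of these had an unadjusted p under 0.05. Of 5 hepatocyte markers 2 were higher (Apoa1 and Serpina1a), where 4.41% of all genes were called higher. Albumin (Alb) did not pass, with 1629594 in Huwe1_LKO and 1192099 in WT and an adjusted p of 0.0631 in the authors' deposited table.

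**Figure D5:**
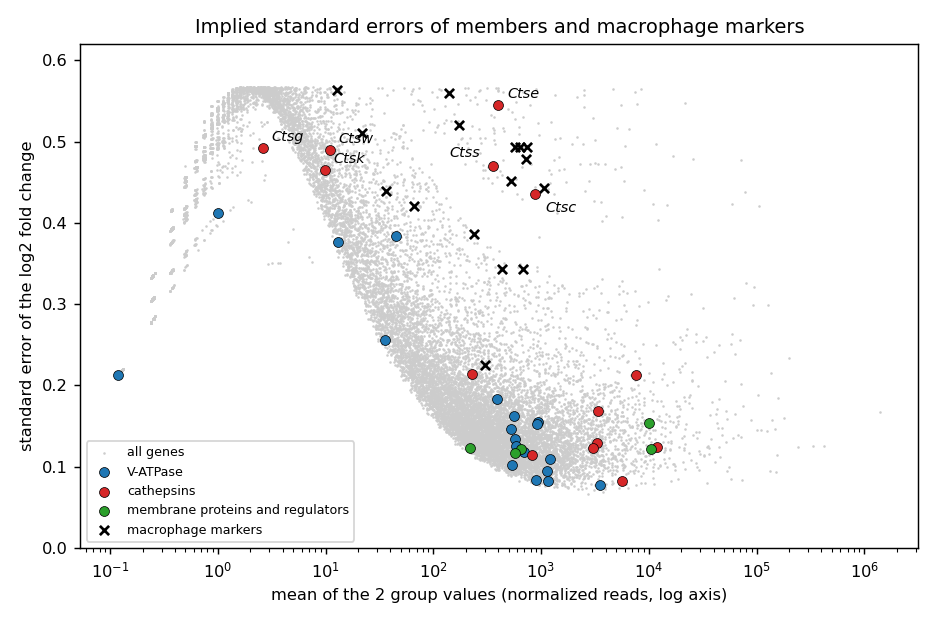
Implied SE of the log2 ratio (y axis) against the mean of both group values (x axis, log scale) for all genes in grey, the members in colour and 16 macrophage markers as crosses. Ctss, Ctsc and Ctse sit high among the crosses, far above pump genes of the same level.

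None of the lysosomal membrane proteins or regulators passed in DESeq2's deposited result. Lamp1 and Lamp2 encode the main glycoproteins that line the organelle. Lamp2 was the highest of all members per kb, at 5275 in Huwe1_LKO and 5077 in WT, with a deposited log2 ratio of 0.06 (SE 0.12, adjusted p = 0.866). Lamp1 had deposited values of 9496 in Huwe1_LKO and 10799 in WT, a log2 ratio of -0.19 (SE 0.15) and an adjusted p of 0.589. Mcoln1, the calcium channel TRPML1 whose signal helps release TFEB to the nucleus, stood at 622 in Huwe1_LKO and 676 in WT in the authors' deposited table (adjusted p = 0.696). The 95% intervals of these 3 genes all included 0.

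Tfeb was the one member with an unadjusted p under 0.05 and a fold change above 0. It stood at 241 in Huwe1_LKO and 199.9 in WT in the authors' deposited table, a log2 ratio of 0.27 (SE 0.12) with an unadjusted p of 0.026 and an adjusted p of 0.159, and it did not pass. With fold changes centred on abundant genes it did pass, at a log2 ratio of 0.35 and an adjusted p of 0.0387. Tfe3, the higher of both per kb at 194 in Huwe1_LKO and 179 in WT, had a deposited log2 ratio of 0.11 (SE 0.12, adjusted p = 0.70). These are RNA levels, while TFEB and TFE3 are governed largely by phosphorylation and by where in the cell they are, which were not measured here. Of the 6 members whose promoter holds TCACGTGA, 1 was called in the deposited table (Ctsd, lower), where 9.97% of all genes were called. The log2 ratios of these 6 ran from -0.57 in Ctsd to 0.07 in Atp6v0e. Atp6v1h and Atp6v0d2 had no promoter window to search.

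Set against each other, pump and proteases had nearly the same median fold change. Among members with a mean value of 10 or more, the median deposited log2 ratio was -0.09 for 17 V-ATPase genes and -0.08 for 12 cathepsin genes, against 0.01 for all 12309 genes of that level. V-ATPase genes ran from -1.14 (Atp6v0d2) to 0.34 (Atp6v1g2) and cathepsin genes from -0.70 (Ctse) to 0.72 (Ctsw) in the deposited fold changes. Weighting each gene by the inverse square of its SE gave a mean of -0.05 for the pump and -0.23 for the proteases, and -0.10 for the proteases without Ctsd. Summed per kb, V-ATPase reads came to 10518 in Huwe1_LKO and 10292 in WT (102% of WT), and cathepsin reads to 12821 in Huwe1_LKO and 14706 in WT (87.2%). Without scaling by length, the V-ATPase sum was 13680 in Huwe1_LKO and 13830 in WT, 98.9% of WT and so on the other side of equality, and the cathepsin sum was 89.7% of WT. Without Ctsd the cathepsin sum per kb was 93.1% of WT. Genes are not replicates, so no test was made between the lists.

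The calls of the pump genes depend on where fold changes are centred. When the most abundant eighth of genes was given a median of 0, which raised every log2 ratio by 0.08, the adjusted p became 0.0822 for Atp6v1h and 0.0525 for Atp6v0d2, and neither was called. The call of Ctsd held, and the split of called members was then 1 higher (Tfeb) and 1 lower (Ctsd). Of all genes, 10.8% were called after this centring.

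Other lysosomal genes were read from a list of 106 that are not members, 2 of which (Cd68 and Gpnmb) are also macrophage markers. By the authors' deposited table, 5 rose and 9 fell, 13.2% in all, against 9.97% of all genes (4.41% higher and 5.56% lower). After centring on abundant genes, 12 of the 106 were called, 6 higher and 6 lower, where 10.8% of all genes were called. The lean toward lower calls thus depends on the centring. Calls of single genes below are those of the deposited table, without centring. The median deposited log2 ratio of the 106 was -0.03, against 0.02 over all genes. Among 40 hydrolases and their cofactors, 2 rose and 3 fell, 12.5% in all, near the share of all genes. Lipa, the acid lipase that splits cholesteryl esters and triglycerides, stood at 2001 in Huwe1_LKO and 3804 in WT (log2 ratio -0.93, SE 0.15, adjusted p = 2.27e-07 in the deposited table). The acid alpha-glucosidase Gaa, which breaks down glycogen, and the phosphatase Acp5 also fell, with deposited log2 ratios of -0.46 and -0.37. Galns, a sulfatase, and the acid nuclease Dnase2a rose, with deposited log2 ratios of 0.86 and 0.55. Of 27 membrane proteins and sorting receptors 1 fell, M6pr, which carries newly made hydrolases to the lysosome (deposited log2 ratio -0.48, adjusted p = 0.00124).

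Genes that assemble or assist the pump numbered 14, of which the authors' deposited table calls 1 higher and 1 lower, 14.3% in all, where 9.97% of all genes were called. Dmxl2, a rabconnectin that promotes joining of V1 to V0, rose to 480.0 in Huwe1_LKO, against 323 in WT (adjusted p = 0.000815 in the deposited table). Vma21, an assembly chaperone of V0 and named after its value was seen, fell to 565 in Huwe1_LKO, against 694 in WT in the deposited table (adjusted p = 0.0452). Among 19 genes of the MiT/TFE family and of lysosomal nutrient sensing, 2 rose and 3 fell in the deposited table, 5 of 19 against 9.97% of all genes, and their median log2 ratio was 0.01. The lysosomal scaffold Lamtor1 and the GTPase Rraga fell, with deposited log2 ratios of -0.35 and -0.50. Rptor (-0.31), the mTORC1 adaptor, also fell, while Flcn (0.58), a GTPase activator that restrains TFE3, and Rragd (0.91), the GTPase on which it acts, rose, by the log2 ratios of the authors' deposited table, and these last 3 were named after their values were seen. Of 6 protease inhibitors 1 fell, the neutrophil-protease inhibitor Serpinb1a, at 55.5 in Huwe1_LKO and 255 in WT in the deposited table (adjusted p = 6.79e-19).

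The members were picked by the names of lysosomal genes, so a high share with a lysosome term follows from that choice and is no result. In the cellular component column of the authors' table, 25 of the 38 (65.8%) carry a term naming the lysosome, against 2.32% of all genes. All 3 that fell carry it, and so do abundant members such as Ctsb, Lamp1 and Lamp2, while Ctsl, Atp6v0a1, Atp6v0b, Atp6v1f, Tfeb and Tfe3 are among those that do not.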

How the data were processed

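Per the labels' protocols, a column kit was used for RNA of whole liver and BGI Genomics built and sequenced the libraries. The submitters' processing notes name mm10 and DESeq2, without a version. Aligner, counting method and strandedness: not given in the sources used here. Groups follow the genotype in the titles, and nothing says that they share a litter or day, or how the animals were chosen.

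The authors deposited 1 table of 16640 genes. Per the file headers, it has 1 expression value for each gene in each genotype, a signal normalized for depth. The deposited log2 fold change of KO over WT equals the log2 ratio of these columns to within 4.71e-08. The deposited adjusted p-value equals a Benjamini-Hochberg adjustment of the unadjusted p-value over all genes to within 1.74e-06. The deposited values sum to 17533080 in Huwe1_LKO and 17347886 in WT. The mean of both columns times 8 falls on 8 distinct values between 0.955 and 1.04 for 707 genes, which is 1 read in 1 of 8 libraries. Their fold changes are only 0.11 to 0.12 in size, so the deposited fold changes of low genes are shrunken toward 0. No implied SE exceeds 0.567 at any level, so variable genes of higher level may be shrunken as well.

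With 1 value per group, no model was refitted and the calls are the authors', at an adjusted p under 0.05. The design allowed for values per liver, which would have been tested with other tools. The SE is the size of the log2 fold change over the normal score of the two-sided p, which assumes a Wald test, and 95% intervals use it. The p-values are DESeq2's, come from these livers only, and do not separate counting error from biological spread. Levels per kb use the authors' gene length. Alternatives were thresholds of 0.01 and 0.1, adjustment over genes with a mean value of 10 or more, centring on the most abundant eighth of genes, a minimum of 1.5-fold, and, for the list medians, other minimum levels, a weighted mean and removal of the trend with gene length (5 classes) and level (10 classes). Coordinates and promoters are from RefSeq on GRCm38, which is mm10. There, 16608 Entrez IDs were found. Members and gene lists were chosen with earlier results of these data known. Genes named in full were those called, and in each role the highest per kb and the one with the largest fold change at a mean value of 10 or more. Of the other lysosomal genes, up to 10 with the smallest p were named, and of each marker list up to 3 called genes. Adjustment and SE were tested on data simulated with a Wald test and no shrinkage. That check thus does not bear on the Wald assumption itself or on shrunken fold changes. Software was scipy 1.17.1, pandas 2.3.3, numpy 2.4.6 and matplotlib 3.10.9 under Python 3.11.15.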

Additional observations from a re-analysis of the deposited data

How the results depend on the processing

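The 3 calls among the members were 1 at an adjusted p under 0.01 and 1 with a minimum of 1.5-fold (Ctsd and Atp6v0d2 in turn), 4 at 0.1, 3 with adjustment over genes with a mean value of 10 or more and 2 after centring on abundant genes. The share of all genes called moved too, from 9.97% to 5.86% at 0.01, 5.81% with the fold minimum and 13.4% at 0.1. It was 10.8% with adjustment over genes with a mean value of 10 or more, and 10.8% after centring. The 2 V-ATPase calls became 0 at 0.01, 0 after centring and 1 with the fold minimum. The 1 cathepsin call became 0 with the fold minimum, as Ctsd lies just under 1.5-fold, and was unchanged in the other settings. Of the membrane proteins and regulators 1 was called after centring (Tfeb), against 0 in the other settings. Of the other lysosomal genes 14 were called, 7 at 0.01 and 4 with the fold minimum, and of the cell type markers 4, with 0 at 0.01 and 2 with the fold minimum. After centring, 12 of the other lysosomal genes were called, 6 higher and 6 lower, against 5 higher and 9 lower without it. Of the cell type markers, 6 were called after centring, all higher. The V-ATPase median minus the cathepsin median was -0.0027 on the log2 scale, 0.0305 with the trend of length and level removed, 0.178 with weighted means and 0.0421 with weighted means without Ctsd, the last chosen after seeing the data. No test was made of this difference, so its sign carries no call. Centring turned the log2 fold changes of Ctsb (0.0034), Ctsl (0.0078) and Ctsa (0.0142) to the other side of 0, none of them called. Depth limits Atp6v0a4, Atp6v1b1, Ctsg and Ctsk, the 4 members with a mean value under 10.

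No paired analysis was possible because the deposited table holds 1 value per group, and for the same reason leaving out livers, other normalizations and a replicate block were not run.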

Other observations

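Beyond the members and the lists, 289 genes carry a lysosome term in the authors' annotation. Per the authors' deposited table, 9 of them rose and 20 fell, 10.03% in all, against 9.97% of all genes. These genes were chosen by the annotation column after the members' values were seen, and the 5 with the smallest p are described here. The zinc transporter Slc30a3 rose to 55.4 in Huwe1_LKO, against 4.55 in WT (log2 fold change 3.61, SE 0.39, adjusted p = 9.18e-18 in the deposited table). Sphk2, a sphingosine kinase, stood at 559.7 in Huwe1_LKO and 957 in WT (log2 fold change -0.77, SE 0.10, adjusted p = 3.83e-11 in the deposited table). The nuclease Dnase2b fell to 254 in Huwe1_LKO, against 501 in WT, in the authors' deposited table, while its relative Dnase2a is among the genes that rose. Capn2, the large subunit of a calcium-activated protease, fell to 577 in Huwe1_LKO, against 854 in WT, in the authors' deposited table. The potassium-chloride cotransporter Slc12a4 rose to 468 in Huwe1_LKO, against 258 in WT, in the authors' deposited table.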
